A study of Mus musculus with 4 samples.

Results

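The heat shock chaperones are 10 genes of the 27998 listed in single-cell RNA sequencing libraries of mouse hepatic CD45+ leukocytes, chosen by symbol. Of these, 6 were taken as inducible (Hspa1a, Hspa1b, Dnajb1, Hsph1, Hspb1 and Hsp90aa1) and 4 as constitutive (Hspa8, Hsp90ab1, Hspd1 and Hspe1). All 10 symbols were found exactly once in each library. The libraries came from adult WT C57BL/6 mice, 2 per group. Exercise mice ran on a motorized treadmill at 12.5 m/min for 60 min a day on 5 days a week over 4 weeks. Sedentary mice spent the same sessions on a stationary treadmill. Serum alanine aminotransferase (sALT), an enzyme that leaks from injured liver cells, stood at 26, 59, 33 and 56 U/L. Here and below, 4 values in a row follow the order exercise 1, exercise 2, sedentary 1, sedentary 2. The labels name no separate animals behind the replicates. The p-values of exercise against sedentary thus measure the spread between these samples, which may be technical. In comparisons of cell types, library was a block, and the p-values measure how those differences varied over the 4 libraries.

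Heat shock chaperones bind unfolded proteins and help them refold. Heat, oxidants and other stresses that unfold proteins release heat shock factor 1, which binds repeats of the bases nGAAn (heat shock elements) upstream of the inducible genes and raises their transcription within minutes. Constitutive members do folding work in unstressed cells, and some of them are abundant transcripts. The cells had been freed by collagenase digestion of the warm liver and selected on CD45 beads, so the levels are those of isolated cells.

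The promoter windows in RefSeq's gene models (GRCm38.p6, 250 bases before to 50 after a start site) held 10 windows for 7 of the 10 members. Hsp90aa1, Hsp90ab1 and Hspa8 are the other members. Shown are the stretches around the heat shock element matches of the Hspa1 pair, Hspe1, Hspb1 and Hsph1, because Hspa1a, Hspa1b and Hsph1 varied most between libraries, Hspb1 was found mostly in endothelial cells, and Hspe1 shares its promoter with Hspd1. Capitals mark the GAA and TTC units of each match and the strand is that of the gene. Hspa1a lies at chr17:34972228-34972285 on the minus strand, Hspa1b at chr17:34959310-34959367 on the minus strand, Hspe1 at chr1:55088053-55088082 on the plus strand, Hspb1 at chr5:135887777-135887854 on the plus strand, and Hsph1 at chr5:149636351-149636380 on the minus strand.
Hspa1a: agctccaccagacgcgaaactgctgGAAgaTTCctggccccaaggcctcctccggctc
Hspa1b: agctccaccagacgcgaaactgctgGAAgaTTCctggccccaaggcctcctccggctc
Hspe1: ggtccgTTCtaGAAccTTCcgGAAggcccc
Hspb1: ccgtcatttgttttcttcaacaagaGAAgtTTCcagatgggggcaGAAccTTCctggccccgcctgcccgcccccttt
Hsph1: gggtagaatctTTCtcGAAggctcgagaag

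The motifs searched were 2 opposed units (GAANNTTC or TTCNNGAA, each of which reads the same on both strands) and 3 units (GAANNTTC followed directly by NNGAA, or TTCNNGAA followed directly by NNTTC, searched on both strands, each of which contains 2-unit matches). The 2-unit motif was present in 7 of 10 member windows (70%), against 4946 of all 32851 windows (15.1%). The 3-unit motif was present in 4 of the 10 (40%), against 198 of all windows (0.603%). Overlapping windows count some matches more than once. The 4 are the windows of Hspd1 and Hspe1, which hold the same matches, and the 2 of Hsph1, which also share theirs. The 3-unit match of Hsph1 lies after its start sites. By gene, 6 of the 7 members with a window (85.7%) held the 2-unit motif and 3 (42.9%) the 3-unit motif. Of 48 other chaperone and co-chaperone genes with a window, 13 (27.1%) held the 2-unit motif and 2 (4.17%) the 3-unit motif. A match is a description of the letters and not a measured binding site.

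Hspa1a and Hspa1b showed 1 match each, starting 104 bases before the start site, in stretches with identical letters. Hspb1 showed 2, at 117 and 97 bases. Hspe1, which encodes the lid of the mitochondrial folding chamber, showed 3 that run into one another at 89, 84 and 79 bases, and the same DNA read on the other strand gave the 3 matches of its neighbour Hspd1 at 144, 139 and 134 bases. The Hsph1 match shown starts 54 bases before one start site and 33 before a second, and further matches lie after these start sites. Neither of the Dnajb1 windows held a match, which says only that these letters are not in those windows.

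**Figure D1:**
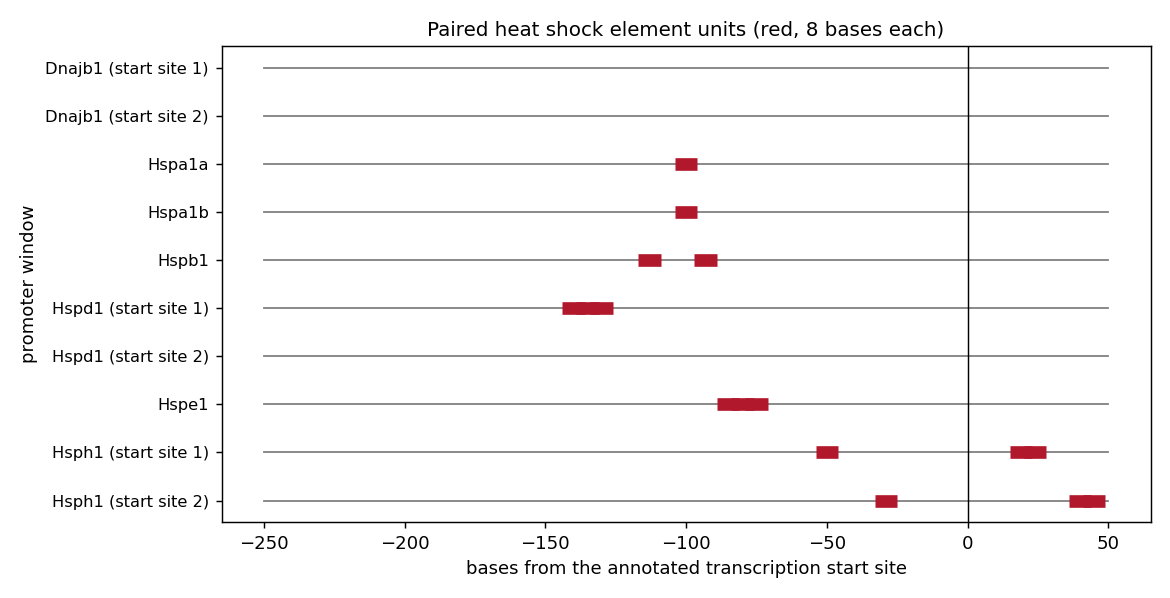
Positions of heat shock element matches (vertical axis: promoter windows of the members, horizontal axis: bases from the start site, negative upstream). The 3 matches of Hspe1 and those of Hspd1 lie side by side, the Hspa1a and Hspa1b matches lie at the same distance of 104 bases, and the Dnajb1 windows and the second Hspd1 window hold none.

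Hspa1a (chr17:34969190-34972156) and Hspa1b (chr17:34956436-34959238), on GRCm38, lie 9952 bases apart on the minus strand. Their open reading frames were identical at 99.4% of alignment columns, gaps counted as differences, and their promoter windows at 98.7%. The transcript after the open reading frame was identical at 45.7% of columns, or 61.1% of the 622 positions without a gap. The sources used here do not say how reads shared by the pair were counted, so the split between the 2 genes is uncertain. Hspd1 (chr1:55077835-55088243, minus strand) and Hspe1 (chr1:55088132-55091307, plus strand) overlap head to head, and without the counting strand their reads in the overlap cannot be told apart. The other members lie at chr8:83608193-83612653 (Dnajb1), chr5:149614287-149636376 (Hsph1), chr5:135887919-135889563 (Hspb1), chr12:110690605-110702728 (Hsp90aa1), chr9:40800984-40810087 (Hspa8) and chr17:45567775-45573271 (Hsp90ab1).

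The libraries held 10050976, 14849778, 10662091 and 11826183 UMIs, and 14560 of 15383 barcodes were kept as cells. Cells fell into 25 clusters and 20 classes. The tests used the 11 classes that had a cell type name and at least 20 cells in every library. Classes are called "like" a cell type because their names rest on marker genes. Kupffer-like cells, the resident macrophages of the liver, were the largest class with 1172, 1662, 1230 and 1242 cells per library. They form 2 clusters that each detect all 12 Kupffer markers, as some other clusters do. The second had a median mitochondrial share of 10.4% and no Kupffer marker among its 10 leading genes. Its Kupffer markers averaged a log2 fold of 1.06 over all other cells, little above its erythroid (1.03) and hepatocyte markers (0.98). In the first cluster the Kupffer average was 2.09. An unnamed cluster took 3.58%, 3.70%, 5.90% and 5.81% of the cells, and 2 smaller unnamed clusters took between 0.294% and 1.39% each. The largest unnamed cluster, of 700 cells, also detected all 12 Kupffer markers. It had at least 20 cells in every library but was left out of the tests because it had no name. Pairs of libraries shared 11 to 31 cell barcodes.

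Before any group comparison, the libraries differed among themselves. Sedentary replicate 2 had the highest level of a member in 71 of 110 combinations of member and class, and sedentary replicate 1 the lowest in 63. Among the 86 combinations with enough UMIs to be tested, sedentary replicate 2 lay above sedentary replicate 1 in 85 (98.8%), the exception being Hspd1 in Kupffer-like cells. Over all 58387 tested combinations of gene and class this share was 46.7%, and over the other chaperone genes it was 65.9% of 416. Exercise replicate 2 lay above exercise replicate 1 in 77.9% of the member combinations, against 47.5% of all. The classes come from the same 4 libraries, so these shares describe libraries and carry no test. Both replicates numbered 2 also had the higher sALT of their group, and a relation to sALT was not tested over 4 libraries.

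The size of the gap between the sedentary libraries differed by member. In Kupffer-like cells the ratio of sedentary replicate 2 to replicate 1 was 14.1 for Hspa1b, 3.18 for Hsph1, 3.099 for Hspa1a, 1.69 for Dnajb1 and 1.32 for Hsp90aa1 among inducible members. Among constitutive members it was 1.502 for Hspa8, above that of Hsp90aa1, then 1.10 for Hsp90ab1, 1.07 for Hspe1 and 0.913 for Hspd1. The median over all tested genes was 0.954. The gap in Hsph1 was wider in lymphocytes, at 5.47 in T-like and 5.22 in B-like cells. The ratio of exercise replicate 2 to replicate 1 in Kupffer-like cells was 4.24 for Hspa1b, 1.998 for Hspa1a and 0.997 for Hspa8.

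**Figure D2:**
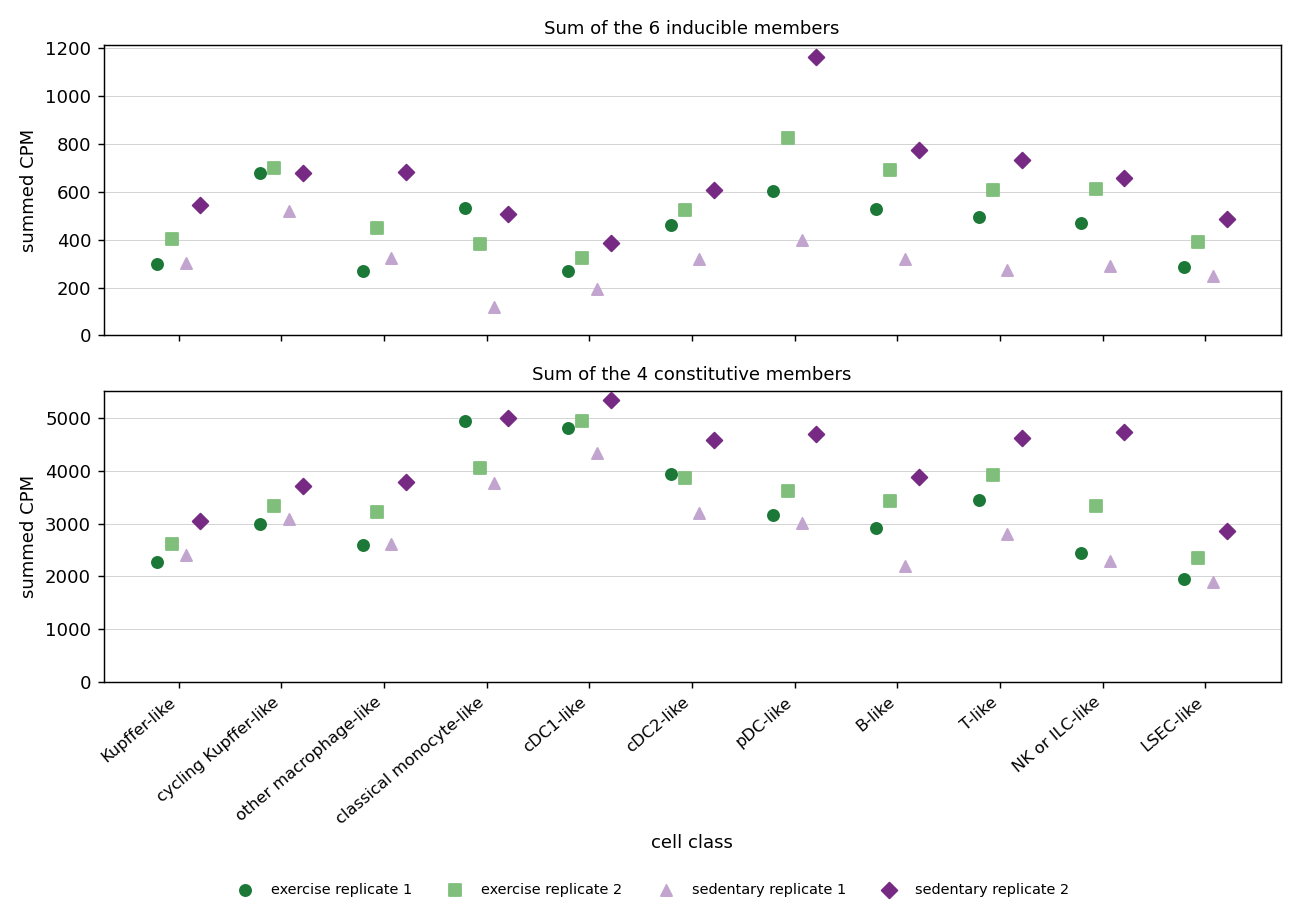
Summed level of the 6 inducible (top) and 4 constitutive members (bottom) in each cell class (CPM, counts per 1e+06 UMIs of the class in 1 library), 1 point per library. Sedentary replicate 2 lies highest for the inducible sum in 9 of the 11 classes and for the constitutive sum in all 11, while sedentary replicate 1 is lowest for the inducible sum in 9.

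The members differed in which cell types carried them. Of the 9 that could be tested, 7 differed between Kupffer-like cells and the mean of the 10 other classes. Most of all 8104 tested genes differed in this contrast as well (3126 higher and 2676 lower). Levels below are CPM, and means are over the 4 libraries. Each gene is compared with itself across classes. In an edgeR quasi-likelihood fit with library as a block, 1 member was higher in Kupffer-like cells, where 38.6% of all 8104 tested genes were higher, and 6 were lower, where 33% of all were lower. Hspa1b had too few UMIs in most classes to be tested.

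Hspa1a encodes the main stress-inducible Hsp70, which holds and refolds unfolded proteins. In Kupffer-like cells its level was 26.6, 53.1, 32.5 and 101 CPM. Sedentary replicate 2 was highest and the groups overlapped. Its mean over libraries was 67.8 ± 46.0 CPM (SD, n = 4) in other macrophage-like, 55.7 ± 53.6 CPM in classical monocyte-like and 53.2 ± 33.6 CPM in Kupffer-like cells. These neighbours in the order overlapped, as did all neighbours down to T-like cells, the lowest at 5.25 ± 4.02 CPM. The log2 difference between Kupffer-like cells and the other classes was 1.54 (SE 0.17, edgeR adjusted p = 1.67e-12). In cells without a UMI of any of 9 hepatocyte markers it was 0.85 (edgeR adjusted p = 0.00014).

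Hspa1b, the near-identical second copy, was carried mainly by macrophages. Its Kupffer-like levels were 3.91, 16.6, 3.47 and 48.9 CPM, from 15, 94, 11 and 196 UMIs. The replicates numbered 2 were high in both groups, and the groups overlapped. The class means ran from 18.2 ± 21.3 CPM in Kupffer-like and 16.6 ± 13.8 CPM in cycling Kupffer-like cells to 0.378 ± 0.755 CPM in cDC1-like cells, type 1 conventional dendritic cells (SD, n = 4). In fits that left out exercise replicate 1, exercise replicate 2 or sedentary replicate 1 it passed the filter and was higher in Kupffer-like cells, by 2.53 to 3.05 on the log2 scale. In the fit without sedentary replicate 2 it was not among the calls.

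Dnajb1 is the Hsp40 partner that hands unfolded proteins to Hsp70, and it was ordered the other way round. Kupffer-like cells had the lowest mean of the 11 classes, 36.8 ± 9.79 CPM (SD, n = 4). The highest was 154 ± 51.1 CPM in plasmacytoid dendritic cell (pDC)-like cells, followed by 117 ± 49.3 CPM in NK or ILC-like, 110 ± 42.2 CPM in T-like and 110 ± 36.1 CPM in B-like cells. Neighbours in this order overlapped. The log2 difference of Kupffer-like cells from the other classes was -1.07 (SE 0.09, edgeR adjusted p = 1.86e-16).

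Hsph1 encodes Hsp110, which recharges Hsp70 with nucleotide. Its mean was highest in T-like cells at 75.6 ± 52.0 CPM and lowest in sinusoidal endothelial (LSEC)-like cells at 27.4 ± 8.60 CPM (SD, n = 4). All neighbours in the order overlapped. Kupffer-like cells, at 32.3 ± 18.5 CPM, were lower than the other classes by a log2 difference of -0.37 (SE 0.11, edgeR adjusted p = 0.00155).

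Hspb1, a small heat shock protein that keeps unfolded proteins from clumping, had most of its transcripts in endothelial cells, which are not leukocytes. LSEC-like cells held 141 of its 186 UMIs (75.8%) and Kupffer-like cells 22 (11.8%). LSEC-like cells had 39.2, 96.5, 38.1 and 82.2 CPM, and these libraries did not overlap with those of the next class, cycling Kupffer-like cells at 3.18 ± 3.34 CPM (SD, n = 4). No UMI was seen in cDC1-like or classical monocyte-like cells of any library. Kupffer-like cells held 2, 15, 2 and 3 UMIs, and their difference from the mean of the other classes did not pass the test (log2 0.48, SE 0.37, edgeR adjusted p = 0.256). Without sedentary replicate 2 it passed (1.49, edgeR adjusted p = 0.0327), on the remaining UMIs.

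Hsp90aa1 encodes the inducible cytosolic Hsp90, which matures kinases and receptors. Means were 510 ± 219 CPM in pDC-like and 501 ± 56.9 CPM in cycling Kupffer-like cells, 245 ± 35.9 CPM in Kupffer-like and 137 ± 30.4 CPM in LSEC-like cells (SD, n = 4). The Kupffer-like log2 difference from the other classes was -0.23 (SE 0.11, edgeR adjusted p = 0.0442). It did not hold without exercise replicate 1 (-0.17, edgeR adjusted p = 0.188), exercise replicate 2 (-0.14, edgeR adjusted p = 0.348) or sedentary replicate 2 (-0.15, edgeR adjusted p = 0.146). It was also lost in cells with at most 10% mitochondrial UMIs (-0.17, edgeR adjusted p = 0.0605), but was larger in cells without a hepatocyte marker UMI (-0.66, edgeR adjusted p = 4.64e-06).

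Hspa8, the constitutive Hsp70 that also uncoats clathrin vesicles, had its highest means in cDC1-like and classical monocyte-like cells. It had 3325, 3301, 3077 and 3753 CPM in cDC1-like cells, and a mean of 3080 ± 320 CPM in classical monocyte-like cells. The lowest classical monocyte-like library lay above every library of the next class, type 2 conventional dendritic (cDC2)-like cells at 2121 ± 400 CPM. Kupffer-like cells had 1146, 1142, 1084 and 1628 CPM, and only LSEC-like cells were lower, at 986 ± 230 CPM (SD, n = 4), with overlap. The Kupffer-like log2 difference was -0.59 (SE 0.06, edgeR adjusted p = 2.4e-12).

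The mitochondrial folding chamber, Hspd1 (Hsp60) and Hspe1 (Hsp10), was also lower in Kupffer-like cells. Hspd1 averaged 148 ± 18.2 CPM in cycling Kupffer-like and 73.7 ± 7.95 CPM in Kupffer-like cells (SD, n = 4), and the Kupffer-like log2 difference from the other classes was -0.45 (SE 0.08, edgeR adjusted p = 3.31e-06). Hspe1 averaged 564 ± 177 CPM in pDC-like and 229 ± 21.8 CPM in Kupffer-like cells, with a log2 difference of -0.62 (SE 0.07, edgeR adjusted p = 3.16e-11). Hsp90ab1, the constitutive Hsp90, was the most even member. Its class means ran only from 922 ± 112 CPM in cDC1-like to 1252 ± 186 CPM in cycling Kupffer-like cells, and the Kupffer-like log2 difference was 0.03 (SE 0.07, edgeR adjusted p = 0.743).

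In cells without a hepatocyte marker UMI the class contrast lay lower for every member called in all cells. The log2 difference there was -1.54 for Dnajb1, -0.79 for Hsph1, -1.0 for Hspa8, -0.86 for Hspd1 and -1.03 for Hspe1, and Hsp90ab1 passed at -0.23 (edgeR adjusted p = 0.0498). That choice kept 764, 1187, 135 and 240 Kupffer-like cells, so it removed most of those of the sedentary libraries.

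**Figure D3:**
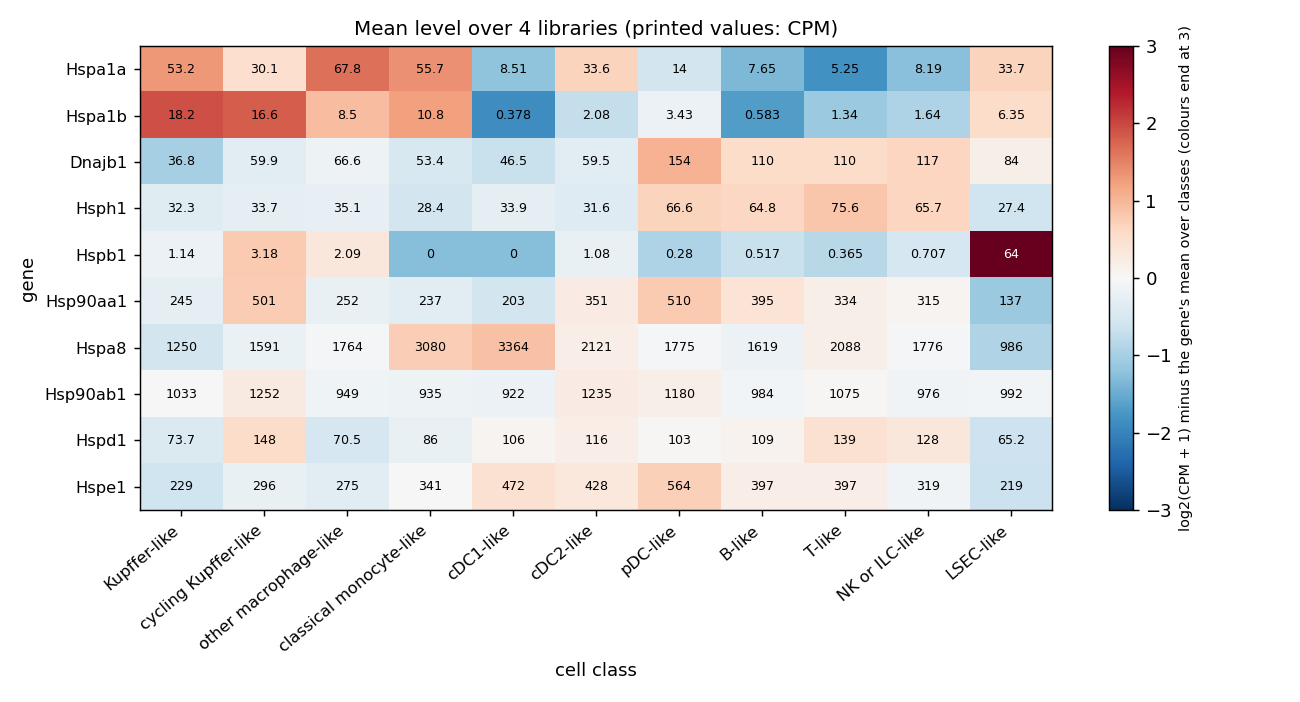
Level of each member in each of the 11 classes (mean CPM over 4 libraries), coloured as log2(CPM + 1) minus the mean of the gene over classes, with colours ending at 3. Hspb1 stands out in LSEC-like cells at 64.0 CPM, Hspa1a and Hspa1b in macrophage classes, and Dnajb1 is lowest in Kupffer-like cells.

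Of 56 listed chaperone, co-chaperone and heat shock factor genes, 46 were tested in the class contrast, and 13 were higher and 22 lower in Kupffer-like cells, with a median log2 difference of -0.16 beside 0.01 over all tested genes. Among those higher were Hspa13 (log2 difference 1.66) and Hsp90b1 (1.64), which encodes the endoplasmic reticulum chaperone Grp94. Among those lower were Cct5 (-1.32) and Tcp1 (-1.01), both subunits of the cytosolic TRiC chamber, and the Hsp90 co-chaperone Cdc37 (-0.98). Of 24 immediate early genes, which respond within minutes to stimulation, 23 were tested and 17 were higher and 4 lower in Kupffer-like cells, with a median of 1.13.

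The share of cells with at least 1 UMI of Hspa1a or Hspa1b was low in every library. With every cell thinned to 1000 UMIs, a UMI of either gene was seen in 3.24% (95% exact interval 2.30 to 4.42) and 6.32% (105 of 1662 cells) of Kupffer-like cells from exercise libraries 1 and 2. From sedentary libraries 1 and 2 it was 2.59% (1.77 to 3.66) and 12.5% (10.7 to 14.4). Sedentary replicate 2 lay above the others, and exercise replicate 2 above both replicates numbered 1, beyond the intervals, which cover counting error alone. Unthinned shares were 8.79%, 15.9%, 7.97% and 30.6%, at median depths of 2705.5, 2913.5, 2235.5 and 2826.5 UMIs. Thinning left out 33 cells of sedentary replicate 1 and none elsewhere.

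RNA free in the droplets was not measured here, and its part in these shares was not tested. T-like cells are given for comparison as the class with the lowest mean Hspa1a level, so their lower shares follow from that choice. The thinned share there was 0 of 558 cells in exercise replicate 1, which allows a share of up to 0.538% (3 counts of the total), and 1.09%, 0.166% and 1.12% in exercise replicate 2 and sedentary replicates 1 and 2, at median depths of 3038, 3012, 2441 and 2557 UMIs. For Dnajb1 the order between the classes turned, with 13.4%, 15.3%, 5.16% and 9.79% of T-like cells against 3.67%, 4.93%, 1.59% and 2.74% of Kupffer-like cells.

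Few Kupffer-like cells were rich in Hspa1 transcripts. Of 117, 395, 114 and 599 Hspa1a and Hspa1b UMIs in the 4 libraries, the highest number in a single cell was 4, 21, 3 and 16. Cells with at least 5 numbered 0, 6, 0 and 10 and held 12.7% and 12.4% of these UMIs in exercise replicate 2 and sedentary replicate 2. In thinned Kupffer-like cells with an Hspa1 UMI, Hsph1 was detected in 2.63%, 2.86% and 0% of cells of exercise libraries 1 and 2 and sedentary library 1 (38, 105 and 31 cells). In cells without one it was 2.47%, 3.40% and 2.32%, within the 95% exact intervals of the former, which for the 0% reaches 11.2%. For Hsph1, sedentary replicate 2 was the library in which the intervals lay apart, with 10.97% of 155 cells (from 6.52%) against 4.42% (3.27 to 5.81). In that library Dnajb1 was detected in 2.58% (0.708 to 6.48) of cells with an Hspa1 UMI and 2.76% (1.87 to 3.92) of those without, with overlapping intervals. Hspa8 intervals lay apart in exercise replicate 2 (71.1 to 87.2 with, 62.9 to 67.7 without) and sedentary replicate 1 (66.3 to 94.5 and 60.0 to 65.6). Hsp90aa1 intervals lay apart in exercise replicate 2 (24.4 to 43.2 and 18.3 to 22.3). For both genes they overlapped in the remaining libraries, and those of Hspb1 and Hsp90ab1 overlapped in every library.

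**Figure D4:**
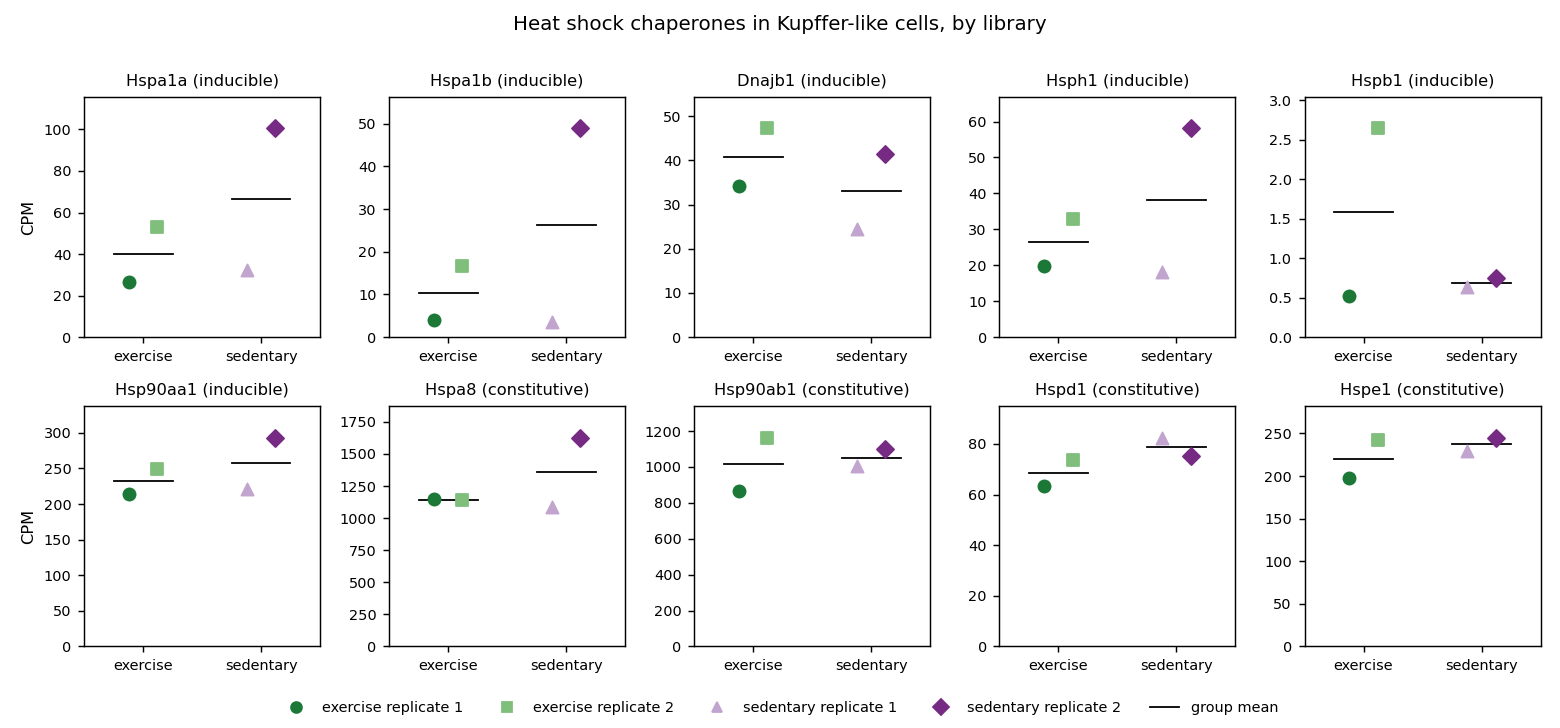
Level of each member in Kupffer-like cells (CPM), 1 point per library, lines for group means, exercise and sedentary side by side. Sedentary replicate 2 is highest for Hspa1a (101 CPM), Hspa1b (48.9 CPM), Hsph1 (58.1 CPM) and Hspa8 (1628 CPM), and Dnajb1 is highest in exercise replicate 2 (47.3 CPM).

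Exercise against sedentary was tested first in Kupffer-like cells. By edgeR's quasi-likelihood test with Benjamini-Hochberg adjustment, 0 of the 9 tested members passed, where 37 of all 9803 genes (0.377%) did. At an unadjusted p under 0.05 the members numbered 0 as well, where 5.93% of all genes lay, and DESeq2 called 0 of 10. Of the 9, 8 had a negative log2 change (lower with exercise), with a median of -0.18 beside 0.00 over all genes. The direction of several members rested on sedentary replicate 2: without it 6 of 9 changed sign and 2 of 9 were negative, with a median of 0.13.

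Among inducible members, Hspa1a had a log2 change of -0.72 (SE 0.49, edgeR adjusted p = 0.879) and Hspa1b one of -1.31 (SE 0.89, edgeR adjusted p = 0.879). Leaving out sedentary replicate 2 gave 0.38 and 1.71. Without sedentary replicate 1 they were -1.32 and -2.16, so leaving out either sedentary library gave opposite signs.

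Hsph1, at 19.8, 33.0, 18.3 and 58.1 CPM, had a log2 change of -0.53 (SE 0.47, edgeR adjusted p = 0.919). Without sedentary replicate 2 it was 0.61, and without sedentary replicate 1 it was -1.12. The groups overlapped, with the lowest and the highest library both sedentary. Hsp90aa1 stood at 214, 249, 222 and 293 CPM and had a log2 change of -0.14 (SE 0.17, edgeR adjusted p = 0.94), which was 0.12 without sedentary replicate 2. Hspb1 was not tested at 2 to 15 UMIs per library.

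Dnajb1 was the member with a positive change in Kupffer-like cells. Its levels were 34.1 and 47.3 CPM with exercise and 24.6 and 41.4 CPM in sedentary replicates 1 and 2, overlapping between groups. The log2 change was 0.31 (SE 0.26, edgeR adjusted p = 0.91), which became -0.03 without sedentary replicate 1 and 0.80 without sedentary replicate 2.

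None of the 4 constitutive members passed. The log2 changes in Kupffer-like cells were -0.23 for Hspa8 (SE 0.19), -0.03 for Hsp90ab1 (SE 0.16), -0.18 for Hspd1 (SE 0.13) and -0.09 for Hspe1 (SE 0.14), with edgeR adjusted p from 0.885 to 0.984. Hspd1, at 63.3 and 73.5 CPM with exercise and 82.5 and 75.4 CPM in sedentary libraries, was the member whose Kupffer-like groups did not overlap, as in 35.9% of all tested genes, and it did not pass the test. Hspa8 was at 0.13 and Hsp90ab1 at 0.07 without sedentary replicate 2, and without exercise replicate 1 Hsp90ab1 was at 0.19 and Hspe1 at 0.07.

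**Figure D5:**
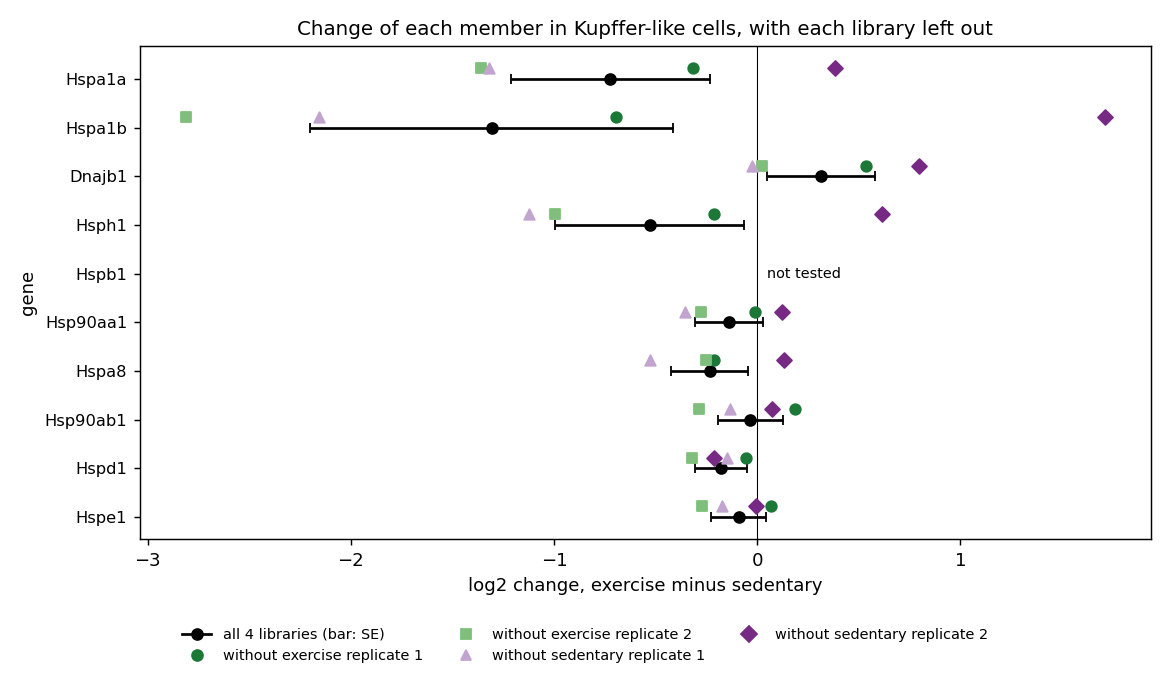
Log2 change of each member in Kupffer-like cells, exercise minus sedentary, from edgeR (black: all 4 libraries with SE), with coloured markers for fits that each leave out 1 library. The markers of Hspa1a, Hspa1b and Hsph1 without sedentary replicate 2 lie right of 0, at 0.38, 1.71 and 0.61, while the black points lie left of it.

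Summed over members, Kupffer-like cells had 299 and 402 CPM of inducible transcripts with exercise and 301 and 543 CPM in sedentary replicates 1 and 2. Sedentary replicate 2 was high and the groups overlapped, and the difference of -0.22 on the log2 scale was smaller than the SD between replicates, 0.48. Without the abundant Hsp90aa1, the inducible sums were 84.9, 153, 79.4 and 250 CPM and the log2 difference -0.31 (SD between replicates 0.93). The constitutive sum was 2270 and 2622 CPM with exercise and 2400 and 3049 CPM sedentary (-0.15, SD 0.20). The ratio of inducible to constitutive UMIs was 0.132, 0.153, 0.125 and 0.178, a log2 difference of -0.07 with an SD of 0.28.

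Hspa1a had the same order of libraries in both Kupffer-like clusters. It stood at 26.1, 54.4, 30.8 and 110 CPM in the first cluster and at 27.8, 47.4, 35.1 and 63.7 CPM in the second, which had the higher mitochondrial share. Sedentary replicate 2 was highest in each. For Dnajb1, at 35.3, 49.6, 29.3 and 46.2 CPM in the first and 30.8, 37.4, 17.1 and 21.7 CPM in the second, the order differed. Hspa1b and Hsph1 were highest in sedentary replicate 2 and next in exercise replicate 2 in both clusters, while the replicates numbered 1 changed places.

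Other transcripts moved with the groups in Kupffer-like cells. The 9 hepatocyte markers summed to 151 and 113 CPM with exercise and 1407 and 684 CPM sedentary, the 6 erythroid markers to 101 and 313 CPM against 1116 and 923 CPM, and the 12 Kupffer markers to 36749 and 36406 CPM against 31475 and 33554 CPM. Mitochondrial transcripts summed to 66448 and 61407 CPM with exercise and 84262 and 72156 CPM sedentary. The hepatocyte and erythroid sums were highest in sedentary replicate 1, and the inducible chaperone sum in sedentary replicate 2. The 24 immediate early genes summed to 5610, 5736, 7091 and 9648 CPM, highest in sedentary replicate 2. Among the 764, 1187, 135 and 240 Kupffer-like cells without a hepatocyte marker UMI, 0 of 9 members passed and 7 of 9 changes were negative. This choice of cells moves with the groups itself. The part of the other sums in the member values was not tested.

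Of the wider chaperone list, 49 genes were tested in Kupffer-like cells and 0 passed in either direction by edgeR, with 5 at an unadjusted p under 0.05 and 0 called by DESeq2. The log2 change was negative in 34 of 49, with a median of -0.09. Fkbp5, an Hsp90 co-chaperone induced by glucocorticoids, had the lowest p (-0.89, SE 0.21, edgeR adjusted p = 0.249). Hspa5, the chaperone BiP of the endoplasmic reticulum, was also among those with the lowest p (-0.32, edgeR adjusted p = 0.603). The balance rested on 1 library: without sedentary replicate 2, 24 of 50 were negative and the median was 0.01. Of 22 tested immediate early genes, 1 fell with exercise, Egr1 (-0.79, edgeR adjusted p = 0.0365), and 19 had a negative change, with a median of -0.50. At an unadjusted p under 0.05 these genes numbered 18, and DESeq2 called 3 of 24, all lower. The log2 change of Egr1 was -0.80 without exercise replicate 1 and -0.79 without exercise replicate 2, but the call did not hold. Such fits take the spread from the other group, so a lost call does not show that Egr1 rested on that library. Without sedentary replicate 1 the change was -0.91, and without sedentary replicate 2 it was -0.66. Leaving out sedentary replicate 1 gave a median of -0.69 for the immediate early genes and -0.08 for the wider chaperone list.

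Outside Kupffer-like cells, 77 member tests in 10 classes gave 0 calls by edgeR, where 0.0967% of all 48584 tests passed, and the smallest adjusted p was 0.568. At an unadjusted p under 0.05 the members numbered 6, where 5.18% of all tests lay, and DESeq2 called 0. Of these 6, 3 were Dnajb1. In T-like cells, where 2 of all 8430 genes (0.0237%) passed, Dnajb1 stood at 127 and 156 CPM with exercise and 56.1 and 102 CPM sedentary, a log2 change of 0.77 (SE 0.23, edgeR adjusted p = 0.568). In B-like cells, where 14 of all 6569 genes (0.213%) passed, it stood at 136 and 135 CPM against 58.8 and 109 CPM, a log2 change of 0.70 (SE 0.23, edgeR adjusted p = 0.697). In NK or ILC-like cells it stood at 177 and 136 CPM against 71.1 and 82.3 CPM, a log2 change of 0.96 (SE 0.27, edgeR adjusted p = 0.665).

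The exercise libraries of these 3 classes lay above the sedentary libraries without overlap, as they did for Dnajb1 in cDC2-like and cycling Kupffer-like cells. Of all 58387 tested combinations of gene and class, 34.9% had groups that did not overlap, with exercise higher in 19% and lower in 15.8%. Over the 86 tested member combinations the groups did not overlap in 12 (14%), fewer than in that background. Exercise was higher in 7, all of inducible members (16.7% of their 42 combinations), and 5 of these were Dnajb1. It was lower in 5, all of constitutive members (11.4% of their 44). Both shares lay below those of all genes in the same direction. Over the 11 classes, which share libraries, the exercise mean of Dnajb1 was higher in 10. Sedentary replicate 1 was its lowest library in 10 of 11. Without sedentary replicate 1, Dnajb1 was not among the calls in any class. In fits without sedentary replicate 2, its log2 change was 1.19 in B-like and 1.27 in T-like cells.

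The remaining 3 of the 6 were Hspa1a in cDC2-like cells, at 8 and 23 UMIs against 0 and 5 (log2 change 2.56, edgeR adjusted p = 0.79), Hsph1 in cDC1-like cells (-1.06, edgeR adjusted p = 0.964) and Hspa8 in pDC-like cells (-0.26, edgeR adjusted p = 0.972). Calls in the 10 classes turned with the sedentary library left out. Members called without sedentary replicate 1 were all lower with exercise, and those called without sedentary replicate 2 were all higher. The share of all genes passing in these fits was not counted. Without sedentary replicate 1, the log2 change of Hsph1 was -1.06 in B-like and -1.27 in T-like cells. With sedentary replicate 2 left out, it was 1.36 in B-like cells. Without exercise replicate 2, Hspa8 was at -0.58 in NK or ILC-like and Hsph1 at -1.495 in pDC-like cells.

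The exercise change in Kupffer-like cells was also set against the mean change in the other classes by an interaction term. By edgeR, 0 of 9 members passed, where 0.0123% of all 8104 genes passed in each direction, and 0 lay at an unadjusted p under 0.05. The differences of 8 members ran from -0.54 for Hspa1a (SE 0.41) to 0.01 for Hspe1 (SE 0.15). Hspb1 gave no usable estimate.

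Over all kept cells of a library, without use of the classes, 0 of 10 members passed by edgeR or DESeq2, where 7 of all 12160 genes (0.0576%) did by edgeR, and 0 lay at an unadjusted p under 0.05, where 6.76% of all genes lay. Dnajb1 had the lowest p, at 75.9 and 87.7 CPM with exercise and 42.6 and 73.6 CPM sedentary, with no overlap, as in 37.5% of all tested genes (log2 change 0.46, SE 0.24, edgeR adjusted p = 0.793). Without sedentary replicate 2 its log2 change was 0.94 and 0 of 10 members were negative. With sedentary replicate 1 or exercise replicate 2 left out, 9 of 10 were negative.

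The genes whose levels followed the inducible sum most closely over 44 sums (11 classes in 4 libraries, 5565 genes with a mean of at least 20 CPM) included other chaperone genes. Pearson's r, given as a description because the sums share libraries, was 0.71 for the Hsp70-Hsp90 linker Stip1, 0.64 for the Hsp90 activator Ahsa1 and 0.62 for the Hsp40 gene Dnaja1. Gpbp1 (0.65) and Eif4e (0.63) ranked among them. With Hsp90aa1 left out of the sum, Dnaja1 led at 0.78, followed by Ahsa2 at 0.72 and Crem at 0.68. The constitutive sum was followed most closely by Tap1 (0.71) and Psme1 (0.68), which serve antigen processing. Next came Rps26-ps1 (0.68), Rpl10-ps3 (0.67), Mthfd2 (0.67) and Crip1 (0.67), and then the TRiC subunits Cct4 and Tcp1 at 0.67 each.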

How the data were processed

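UMI counts per gene and cell barcode, deposited as whole numbers that were not normalized, were read from 4 libraries (2 per group). The submitters' processing notes name Cell Ranger, Seurat 3.1 and the build mm10 (GRCm38). The sources used here give neither the Cell Ranger version nor the strand used in counting. The series text names a pre-mRNA genome, so intronic reads may be counted, and it speaks of nuclei and a FACS sort, where the labels name cells and CD45 beads.

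A barcode was kept from 500 UMIs and 200 genes upward, with up to 20% mitochondrial UMIs, and 460 doublets were removed (0.8% per 1000 cells). Median depths were 2718, 2848, 2026 and 2381 UMIs per cell (exercise 1, exercise 2, sedentary 1, sedentary 2). Cells were clustered on 2000 variable genes (30 components, 20 neighbours, resolution 1) without the members, the other chaperones and, a choice made after seeing the data, hepatocyte and red cell genes (Python 3.11.15, scikit-learn 1.9.0, leidenalg 0.10.2). Clusters were named from marker lists.

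Counts were summed per class and library and tested with edgeR 4.0.16 in R 4.3.3 (quasi-likelihood, TMM, filterByExpr, Benjamini-Hochberg over all tested genes, threshold 0.05), with DESeq2 1.42.0 as an alternative. The scripts were tested on simulated counts. Alternatives changed scaling, filter, tool, replicate block, cell filters, clustering genes and left out each library. Replicate numbers were not treated as pairs, since nothing in the labels ties them and only 2 pairs exist. The members and lists were chosen with earlier results of these data known. The text names the 10 members in every comparison, and of the wider chaperone list and the immediate early genes those with the lowest p, except 1 result that is not reported here. Shares used cells thinned to 1000 UMIs with exact 95% intervals. RefSeq promoter windows (GRCm38.p6) were searched for motifs, and gene coordinates came from the GENCODE annotation of GRCm38.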

Additional observations from a re-analysis of the deposited data

How the results depend on the processing

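Under the listed changes of processing, 279 values stayed as they were in direction, in their side of the threshold or within the spread, 12 turned in sign, 8 newly passed, 6 no longer passed and 18 moved. Of those added after seeing the data, 51 stayed and 2 turned. In Kupffer-like cells the 0 members called became 2 without a filter on low counts (Hspa1a and Hspa1b). Over the 10 other classes the 0 calls became 2 without the filter. The share of all genes passing without the filter was not counted. With 1 library left out, 0 to 6 of 9 member changes turned in sign in Kupffer-like cells and 2 to 7 of 10 over whole libraries. The number of members higher in Kupffer-like cells than in other classes, 1, became 3 without the filter and 2 to 2 with 1 library left out. The cause of these changes was not tested beyond the libraries named beside each result.

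With the replicate block, edgeR called 1 member in Kupffer-like cells (Hspa1b, -1.32, adjusted p = 0.0233), 3 in the other classes (Dnajb1 in B-like and T-like cells and Hspa1a in cDC2-like cells) and 0 over whole libraries. The block raised the calls among all genes as well. In Kupffer-like cells 7 of all 9803 genes were higher and 121 lower, where 37 passed without the block. Over whole libraries 40 of all 12160 genes were higher and 249 lower, where 7 passed without it. The share of all genes in the other classes was not counted for this fit. The deviations of same-numbered samples had a correlation of 0.20 over 9803 genes, but 2 pairs do not settle whether the numbers pair the samples.

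With each library left out in turn, the log2 exercise changes in Kupffer-like cells ranged from -1.36 to 0.38 for Hspa1a, from -2.81 to 1.71 for Hspa1b, from -0.026 to 0.80 for Dnajb1, from -1.12 to 0.61 for Hsph1, from -0.35 to 0.12 for Hsp90aa1, from -0.53 to 0.13 for Hspa8, from -0.29 to 0.19 for Hsp90ab1, from -0.32 to -0.06 for Hspd1 and from -0.27 to 0.070 for Hspe1. In cells without hepatocyte marker UMIs Hspe1 was at 0.076, and in the second Kupffer-like cluster alone Hsph1 was at 0.083 and Hspe1 at 0.010. In the contrast of classes, Hsp90ab1 ranged from -0.042 to 0.12 with 1 library left out and was at -0.23 in cells without hepatocyte marker UMIs. Without thinning, the mean share of Kupffer-like cells with an Hspa1 UMI was 12.3% with exercise and 19.3% sedentary, against 4.78% and 7.53% thinned, and that for Hspa8 was 91.2% and 91.1%, against 66.3% and 70.6%.

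Depth limits the low members. Hspb1 outside endothelial cells and Hspa1b in lymphocytes rest on 0 to 15 UMIs per class and library, where a difference was not detectable. With 1 library left out, a group of 1 library is assumed to vary like the other group.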

Other observations

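Classes too small to enter the tests held the members as well, at low depth. Cycling T-like cells (7, 15, 37 and 20 cells for exercise 1, exercise 2, sedentary 1 and sedentary 2) had 1217, 1083, 1061 and 724 CPM of the summed inducible members. Neutrophil-like cells (6, 32, 42 and 62 cells) had 0, 114, 171 and 301 CPM of it, on 0 to 27 UMIs per library.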
